A study of Homo sapiens with 11 samples.

Results

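RNA sequencing (RNA-seq) of MDA-MB-231 cells without siRNA was described from the 2 wild-type (WT) libraries of the series, replicates 1 and 2, out of 11 samples in all, and every gene of their count tables was taken as a member. MDA-MB-231 is an established human triple-negative breast cancer (TNBC) cell line from a pleural effusion, and the labels call its cells epithelial. The WT cells received the transfection reagent INTERFERin without any siRNA and were collected 3 days later, so the description is of cells that carry the reagent treatment, and a culture without it is not analysed here. The labels do not say whether replicates 1 and 2 were separate cultures, and their spread may be technical. No library of cells depleted of mH2A1.1 was used. Each table lists 23167 Ensembl genes, of which 23061 were matched to a symbol in GENCODE release 44, and the counts summed to 9794674 in replicate 1 and 7856892 in replicate 2.

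TNBC lacks the estrogen receptor, the progesterone receptor and amplified ERBB2, the markers that define the other clinical classes of breast cancer. Among TNBC lines, MDA-MB-231 is a textbook model of the mesenchymal, invasive kind, in which cells keep some keratins of simple epithelium but use vimentin, fibronectin and integrins of motile cells. Levels are given here on 2 scales. CPM values are a gene's counts divided by the library total and scaled to a common sum, and serve to compare libraries. TPM values, computed over protein-coding and long non-coding RNA (lncRNA) genes, are also divided by the merged exon length, and serve to compare genes. Single values written as a pair are those of replicates 1 and 2, TPM values are means of both, and a ± is the SD (n = 2).

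A level of 1 CPM or more was reached in the mean by 12092 of the 23167 genes, by 11504 of 18108 protein-coding genes and by 457 of 2810 lncRNA genes. A further 3651 genes had counts under 1 CPM, and 7424 (32.0%) had 0 counts in both libraries, which at the summed depth of 17651566 counts allows a level of up to 0.170 CPM. The commonest class of protein-coding genes was 10 to 100 CPM, with 6520 genes, while 2553 lay between 100 and 1000 CPM and 61 at 1000 CPM or more. The background for the lists and families below is thus 63.5% of protein-coding genes at 1 CPM or more. At 100 CPM or more it is 2614 of 18108. The counts were spread over many genes, since the 10 highest genes held 5.08% ± 0.0438 of a library, the 100 highest 16.2% ± 0.112, and 1105 and 1092 genes were needed to reach 50% of the counts.

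**Figure D1:**
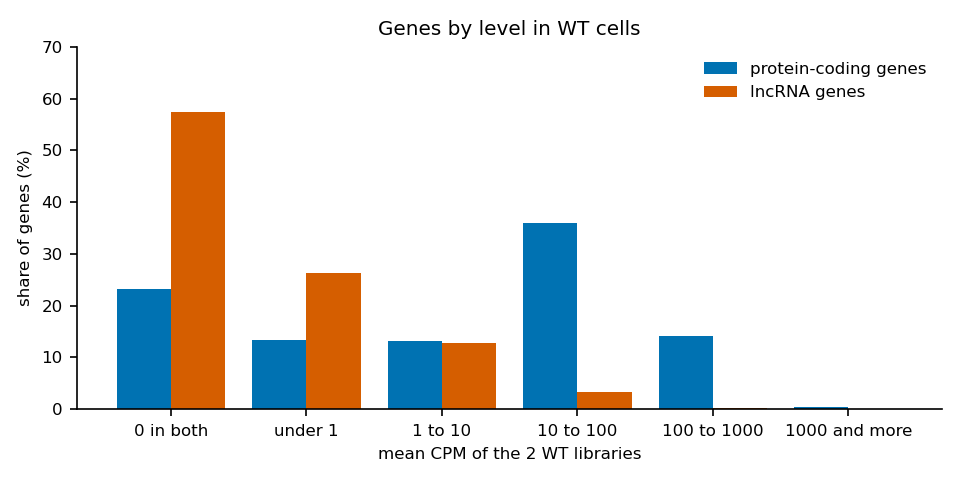
Share of protein-coding genes (blue) and lncRNA genes (orange) in 6 classes of mean CPM over the 2 WT libraries. The highest blue bar is at 10 to 100 CPM, with 6520 of 18108 protein-coding genes, and the highest orange bar is at 0 counts, with 1613 of 2810 lncRNA genes.

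Some genes that every cell uses were listed at 0, so a count of 0 is not read here as a silent gene. Among 316 genes outside the Y chromosome, of 7 families that make up ribosomes of the cytosol and mitochondria, complex I, the proteasome, translation initiation, nuclear ribonucleoproteins and the CCT chaperonin, 16 (5.06%) were listed at 0. Some of these are tissue-restricted copies, such as RPL3L of muscle and PSMB11 of the thymus, but RPS25, RPL7A, MRPS12, NDUFS1, PSMC4, EIF3K, HNRNPL and HNRNPR are used by every cell. Several lie in blocks of neighbors at 0. HNRNPL and MRPS12 share a run of 12 protein-coding genes on chromosome 19, and RPL7A lies in a run of 14 on chromosome 9 together with SURF1, SURF4 and MED22, which were chosen after their values were seen. ACTN4, a cytoskeletal crosslinker, was next to EIF3K and was listed at 0 as well. Of 816 protein-coding genes of GENCODE with over 50% of their sampled 50-base words also on an alternate sequence of hg38, 88 were in the tables and 59 of these were at 0, against 4128 (22.9%) of the other 18020. None of the 8 named genes was among the 88. The hg38 sequence used here lacks the patch sequences of GRCh38. The zeros could therefore not be compared with those, and this check cannot decide whether copies elsewhere matter for the 8 genes. The cause of these zeros was not tested, and 55 of the 700 symbols of the gene lists, among them B2M, PTPRC, TJP1 and TUBB, were not analysed here.

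The 4 genes that mark these cells, VIM, CD44, EGFR and MMP14, were all high. VIM, the intermediate filament protein of mesenchymal cells, had 22006 and 19054 counts, or 2247 and 2425 CPM (2336 ± 126 CPM; 2392 TPM). CD44, the hyaluronan receptor, had 1287 and 1277 CPM (1282 ± 7.26 CPM; 680.3 TPM). EGFR, the receptor of epidermal growth factor, had 639 and 640.3 CPM (639.7 ± 0.925 CPM), and MMP14, a membrane-bound collagenase, had 530.5 and 580.4 CPM (555 ± 35.3 CPM). Per length the order was VIM, CD44, MMP14 at 637 TPM and EGFR at 213 TPM. VIM was above the others in both libraries, while CD44 and MMP14 were neighbors whose ranges did not touch, at 691 and 669 TPM for CD44 and 616 and 658 TPM for MMP14. The order of CD44, MMP14 and EGFR was the same with the longest transcript as the length.

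Most, but not all, mesenchymal genes were expressed. Of 22 mesenchymal and basal B markers, 19 reached 1 CPM and 13 reached 100 CPM, with a median of 161 CPM beside 10.5 CPM over all protein-coding genes. After VIM, the highest per length were AXL, a receptor tyrosine kinase of invasive cells, at 1671 and 1679 CPM (1729.8 TPM), and CCN1, a secreted matrix protein and a target of YAP, at 1193 and 1187 CPM (1707 TPM), and the ranges of these 2 genes overlapped on the TPM scale. CAV1, the coat protein of caveolae, followed at 969 and 917 CPM (1294 TPM). The membrane linker MSN had 504 TPM and fibronectin, FN1, had 226 TPM. Among the transcription factors of the epithelial to mesenchymal transition, ZEB1 had 160.2 and 146 CPM (99.4 and 88.6 TPM) and SNAI2 had 53.3 and 57.9 CPM (87.1 and 92.5 TPM), with ranges that overlapped per length. SNAI1 was low at 2.55 and 2.80 CPM, TWIST2 was listed at 0 between ASB1 and HDAC4, which had counts, and TWIST1 was at 0 together with its neighbor FERD3L. The cadherin of mesenchymal cells was CDH11, at 174 and 163 CPM, while the N-cadherin gene CDH2 had 21 and 25 counts. SPARC, a matrix protein of many mesenchymal cells, had 8 and 7 counts.

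Of 23 measured epithelial junction and identity genes, 14 reached 1 CPM, a share near the 63.5% of all protein-coding genes, and their median of 3.29 CPM was below that of 10.5 CPM over all. CDH1, the E-cadherin of epithelial junctions, had 22 and 19 counts (2.25 and 2.42 CPM). EPCAM, an epithelial surface protein, had 19.3 and 21.4 CPM, and CLDN4, a claudin of tight junctions, had 69.7 and 71.1 CPM. Of regulators of the epithelial state, the splicing factor ESRP1 had 1 and 0 counts and its paralog ESRP2 had 3.78 and 5.22 CPM. The transcription factor GRHL2 had 3 and 0 counts, ELF3 had 4.19 and 4.07 CPM, and OVOL1 and the trafficking gene RAB25 were listed at 0. Of the 23 genes, 2 reached 100 CPM. CTNNB1, which links cadherins to actin and carries WNT signals, had 529 and 564 CPM, and DSP, the desmosomal anchor of keratin filaments, had 326 and 309 CPM.

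Luminal hormone receptor genes were listed at 0, while keratins of simple epithelium were high. ESR1, the estrogen receptor, and PGR, the progesterone receptor, were listed at 0. Upstream and downstream of ESR1, the nearest genes with counts were ARMT1 at 33.0 CPM and SYNE1 at 64.8 CPM (means). FOXA1, the pioneer factor of luminal cells, had 1 and 0 counts, whereas its partner GATA3 had 17.8 and 17.9 CPM. ERBB2, the receptor amplified in another class of breast cancer, had 77.6 and 77.6 CPM, a level below EGFR in both libraries, and per length it was 39.9 TPM against 213 TPM. KRT8 and KRT18, which pair in filaments of simple epithelium, had 481 and 537 CPM and 334 and 368 CPM, KRT7 had 276 and 303 CPM and KRT19 had 252 and 278 CPM. XBP1, a factor of secretory cells, had 75.8 and 83.2 CPM. In all, 14 of 22 luminal genes (63.6%) reached 1 CPM, beside 63.5% of all protein-coding genes, and 4, the keratins, reached 100 CPM.

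The keratins of basal cells, KRT5, KRT14, KRT6A and KRT6B, were listed at 0, as was SOX10, a factor of basal-like tumors, and KRT17 had 8 and 3 counts, while KRT15, another keratin of basal cells, had 3.68 and 5.35 CPM. KRT5, KRT6A and KRT6B lie in a run of 18 genes at 0 on chromosome 12. SOX10 lay between POLR2F, itself at only 0.127 CPM, and PICK1 at 9.25 CPM (means), so its zero is not read as absence. The parts of the hemidesmosome and its laminin were high. ITGA6 had 756 and 726 CPM (588 TPM), its partner ITGB4 had 314 and 336 CPM (255 TPM), and the laminin chain LAMB3 had 399 and 417 CPM (465 TPM). TP63, the master factor of basal cells, had 11 and 21 counts. Of 20 basal genes 12 (60%) reached 1 CPM and 5 (25%) were listed at 0, beside 63.5% and 23.1% of all protein-coding genes.

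**Figure D2:**
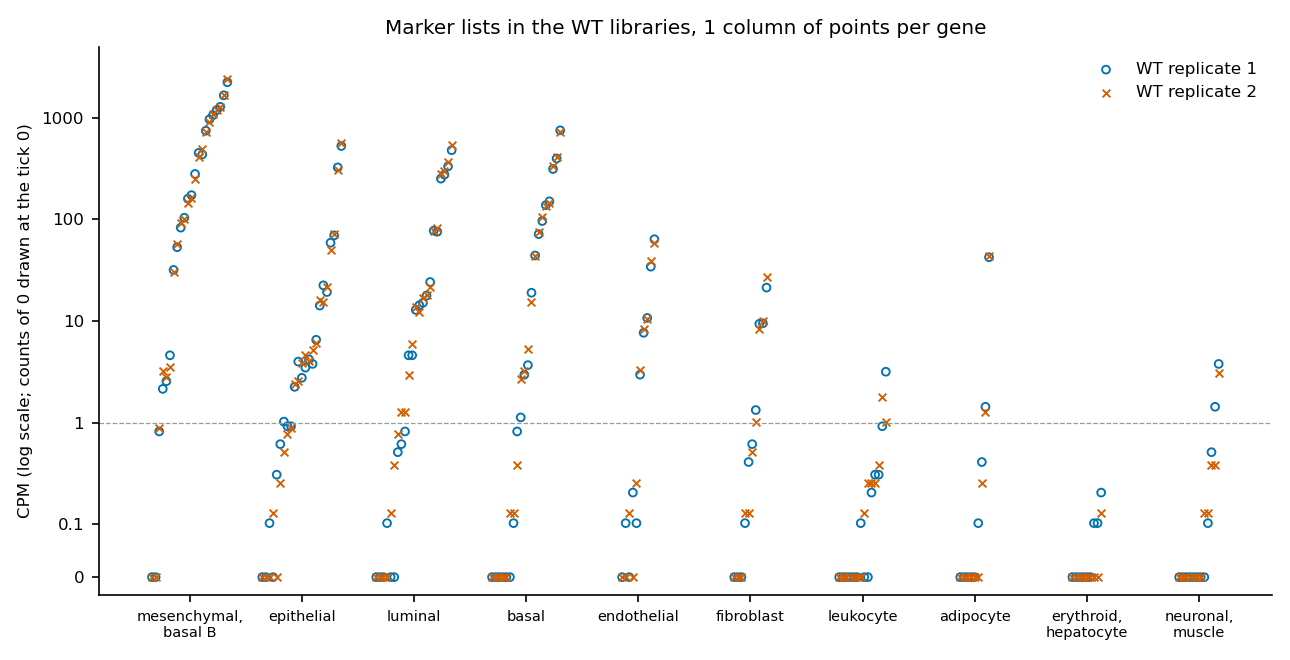
CPM of each measured marker gene (1 column of 2 points per gene, sorted within its list) in WT replicates 1 (circles) and 2 (crosses), on a log axis with counts of 0 drawn at the tick 0 and a dashed line at 1 CPM. The mesenchymal list holds the highest points, up to VIM at 2247 and 2425 CPM, and the leukocyte and the erythroid and hepatocyte lists stay under 4 CPM.

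Markers of other cell types were used to check the purity of the libraries. Of 14 leukocyte markers, 2 reached 1 CPM, CD14 with 31 and 8 counts and CD8A with 9 and 14 counts, and 6 were listed at 0. None of 9 erythroid and hepatocyte markers reached 1 CPM, and the globins HBA1, HBA2 and HBB were at 0. Among neuronal and muscle markers, only GFAP, of 12, reached 1 CPM, with 37 and 24 counts. Fibroblast markers were at 4 of 10, led by COL1A2 at 21.3 and 26.9 CPM, with DCN, POSTN and THY1 listed at 0. Of 10 endothelial markers, 5 reached 1 CPM. CDH5, TEK, TIE1 and VWF had at most 2 counts in a library and CLDN5 had 0, while PECAM1, an adhesion protein of endothelium, had 2.96 and 3.31 CPM, KDR, a receptor of VEGF, had 7.66 and 8.40 CPM and EGFL7 had 10.7 and 10.4 CPM. ESAM, a junction protein of endothelium, had 63.9 and 58.5 CPM and ROBO4, a guidance receptor of vessels, had 34.3 and 39.1 CPM. Of 9 markers of fat cells 2 reached 1 CPM. ADIPOQ, LEP, FABP4, CIDEA and CIDEC were at 0, while PPARG, the nuclear receptor of adipogenesis, had 42.5 and 43.9 CPM and LPL had 1.43 and 1.27 CPM.

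The 20 highest protein-coding genes per length included histones, ferritin chains, S100 proteins, actins, thymosins and HSP90 genes. FTL, the ferritin light chain, was the highest protein-coding gene at 7366 and 7936 TPM, followed by S100A6, a small calcium-binding protein, at 6573 and 7486 TPM. H1-4, a linker histone, had 6697 and 7010.5 TPM, GAPDH had 6417 and 6429.7 TPM and ACTB, beta-actin, had 6164 and 6452 TPM. FTL was above the others in each library, whereas S100A6 was below H1-4 in replicate 1 and above it in replicate 2. TMSB10, which binds actin monomers, had 5540.3 and 5895 TPM. On the CPM scale, where long genes take more reads, AHNAK, a giant scaffold protein, led at 7279 and 6739.6 CPM, before EEF1A1, the elongation factor that brings tRNA to the ribosome, at 6228 and 6686 CPM. The actin crosslinker FLNA had 4135 and 4418 CPM and the matrix protein THBS1 had 3303 and 3535 CPM.

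Actin and its crosslinkers were among the highest genes of the cytoskeleton. The list of 34 measured cytoskeletal and housekeeping genes held 4.04% ± 0.188 of the counts, with 29 members at 100 CPM or more. That share includes housekeeping genes such as EEF1A1, its highest member on the CPM scale, and is not one of the cytoskeleton alone. ACTG1, gamma-actin, had 2581 and 2769 CPM and MYH9, the heavy chain of non-muscle myosin, had 2295 and 2510.0 CPM. Of the tubulins, TUBA1B (2438 TPM), TUBB4B (1603 TPM) and TUBA1C (839 TPM) were the highest, and TUBB3, the neuronal isotype, had 7 and 10 counts. Tubulin and actin genes have near-identical copies, so reads that match several are not resolved by these counts.

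Glycolysis was high at nearly every step. Of 25 measured genes, 20 reached 1 CPM and 15 reached 100 CPM, holding 1.48% ± 0.0258 of the counts. ENO1, enolase, had 2424 and 2474 CPM (2489 TPM), LDHA, which makes lactate, had 2674 and 2710.5 CPM (2368 TPM) and PKM, pyruvate kinase, had 2268 and 2307 CPM (1415 TPM). The glucose transporter SLC2A1 had 545 and 559.8 CPM. The members at 0 included the testis forms PGK2, GAPDHS and LDHC. Of the lactate transporters, SLC16A3 had 294 and 303 CPM and SLC16A1 was listed at 0, next to LRIG2 at 51.7 CPM (mean).

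Of 21 chaperone genes, 18 reached 1 CPM and 14 reached 100 CPM. HSP90AB1 and HSP90AA1, the cytosolic HSP90 proteins, had 2562 and 2667 CPM and 2559 and 2576 CPM, and HSPA8, the constitutive HSP70, had 2108 and 2216 CPM. The stress-induced HSPA6 had 27 and 17 counts (2.76 and 2.16 CPM). HSPE1, the mitochondrial cochaperone, had 7.04 and 7.13 CPM, beside 573 CPM (mean) for its partner chaperone HSPD1. The cause of the low HSPE1 value was not tested, and it is not read here as low expression. Of the cytosolic ribosomal protein genes, 79 reached 1 CPM. The family held 2.64% ± 0.163 of the counts at a median of 291 CPM, and RPS2 (1711 TPM) and RPL8 (1496 TPM) were among the 3 highest per length. Of 74 mitochondrial ribosomal protein genes, 72 reached 1 CPM, at a median of 34.6 CPM. Proteasome subunits were at 34 of 37, translation initiation factors at 49 of 54 and NADH dehydrogenase subunits at 34 of 35.

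A small set of integrins was high. The integrins are receptors of alpha and beta chains for matrix proteins. Of 26 listed genes 15 (57.7%) reached 1 CPM, beside 63.5% of all protein-coding genes, and 8 reached 100 CPM. ITGB1, the common beta chain, had 1684 and 1666 CPM (610.1 TPM). Its partners ITGA3 (1199.9 and 1284 CPM; 672 TPM) and ITGA6, which bind laminin, ITGA2 (460.1 and 421 CPM), which binds collagen, and ITGA5 (159.7 and 165 CPM), which binds fibronectin, were all high. ITGAV and ITGB5, a vitronectin receptor, had 250.4 and 231 CPM and 156 and 167 CPM. Of the integrins of leukocytes, ITGAL, ITGAM and ITGAX had at most 3 counts in a library. Their beta chain ITGB2 had 2.55 and 2.55 CPM and ITGAE had 10.1 and 10.4 CPM. On the whole list of 26, ITGA4, ITGA8 and ITGA11 were listed at 0.

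Many genes of the matrix that integrins bind were expressed too. Of 32 matrix genes, 28 reached 1 CPM. THBS1 was far above the rest at 1978 TPM, and LAMB3 (465 TPM), LAMC1 (259 TPM) and FN1 (226 TPM) followed. COL5A1 (199.5 TPM), COL6A1 (154 TPM) and COL8A1 (122 TPM) were the highest of 43 collagen genes, 22 of which reached 1 CPM. Of the other fibrillar collagens, COL1A2 had 21.3 and 26.9 CPM, COL1A1 had 9.39 and 8.40 CPM and COL3A1 had 4 and 1 counts. NID1, which links laminin to collagen, was listed at 0.

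One protease stood out in its family. MMP14 had 637 TPM, while the next of 21 matrix metalloproteinase genes by TPM, MMP1, had 7.45 and 10.1 CPM (16.9 TPM), and 7 of the 21 reached 1 CPM. The gelatinases MMP2 and MMP9 each had 5 and 2 counts. Of the plasmin system, PLAU, urokinase, had 466 and 557 CPM (919 TPM) and its receptor PLAUR had 79.7 and 80.9 CPM. PLAU was higher in replicate 2. The metalloproteinase inhibitors TIMP1 (787 TPM), TIMP3 (700.0 TPM) and TIMP2 (491 TPM) lay on either side of MMP14 per length.

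Of 50 measured receptor tyrosine kinases, 29 (58%) reached 1 CPM and 7 reached 100 CPM, and 12 (24%) were listed at 0. Over all protein-coding genes 63.5% reached 1 CPM and 23.1% were at 0. AXL was the highest at 1729.8 TPM, followed by EPHA2, an ephrin receptor, at 371 and 393 CPM (489 TPM), and MET, the receptor of hepatocyte growth factor, at 484 and 486 CPM (356 TPM). EGFR was the fourth. ERBB3 was low at 4.59 and 5.98 CPM and ERBB4 had 0 and 1 counts. RET, ALK, FGFR2, FLT1 and ROR2 were each listed at 0 as a single gene between neighbors with counts. Ligands of EGFR were expressed in the same cells, with AREG at 116 and 99.7 CPM, HBEGF at 113 and 111 CPM, TGFA at 135 and 122 CPM and EREG at 54.8 and 44.7 CPM, while EGF itself was at 6.13 and 4.58 CPM. AREG and EREG were lower in replicate 2.

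Downstream, genes that ERK signaling induces and that restrain it were present together. DUSP6, a phosphatase of ERK, had 307 and 303 CPM, and the feedback inhibitors SPRY4 and SPRY2 had 193 and 191 CPM and 89.6 and 82.5 CPM. CCND1, cyclin D1, had 836 and 818 CPM (921 TPM). NRAS had 272 and 256 CPM, and BRAF had 88.4 and 85.5 CPM. Of the tumor suppressors, RB1 had 148 and 128 CPM, and CDKN2A, CDKN2B and MTAP were the 3 of 31 measured genes at 0.

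Transcription factors of the AP-1, YAP and stress pathways were nearly all expressed, with 35 of 36 at 1 CPM or more and a median of 132 CPM. HMGA1, an architectural DNA-binding protein, led at 1102 and 1152 CPM (2567 TPM). FOSL1 was the highest AP-1 gene at 402 and 422 CPM (1156 TPM), above FOS (293 TPM), FOSL2 (219 TPM) and JUN (196 TPM). HIF1A, the oxygen-regulated factor, had 779 and 715 CPM. TEAD1 and YAP1, the DNA-binding and the coactivator part of the Hippo output, had 637 and 576 CPM and 330.2 and 309.5 CPM. RUNX1 had 248 and 234 CPM and RUNX2 119.8 and 117 CPM, and RUNX3, listed at 0, had CLIC4 at 528 CPM and SYF2 at 34.8 CPM (means) as its neighbors in the table.

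Genes of proliferation were high throughout. All 32 cell cycle genes were at 1 CPM or more and 24 reached 100 CPM, with a median of 149.8 CPM. MKI67, the proliferation antigen, had 2040.4 and 2069 CPM (848 TPM), TOP2A, the topoisomerase of mitosis, had 1336 and 1294 CPM (1094 TPM) and CCNB1, cyclin B1, had 260.4 and 291 CPM (601 TPM). The 6 MCM helicase genes lay between 108 and 413 CPM (means). Replication-dependent histone genes, whose messages carry no poly(A) tail and are kept by total RNA libraries, were at 34 of 60 at 1 CPM or more, led by H1-4 (982 and 1053 CPM), H1-2 (638 and 683 CPM) and H2BC12 (345 and 411 CPM), with 19 members at 0. These genes are short and near-identical, so counts can be split between copies.

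Of 34 measured cytokine and chemokine genes, 27 reached 1 CPM and 4 reached 100 CPM. VEGFA had 371 and 383 CPM, CSF1, the macrophage growth factor, had 279 and 287 CPM (286 TPM), and VEGFC, of lymphatic vessels, had 74.9 and 74.7 CPM. IL6 had 98.6 and 90.7 CPM, the neutrophil chemokines CXCL2 and CXCL8 had 32.9 and 24.1 CPM and 26.9 and 21.6 CPM, and LIF had 65.4 and 66.3 CPM. IL6, CXCL2 and CXCL8 were lower in replicate 2, and LIF was not. IL1B had 19 and 7 counts, and CXCL12, CXCL5, CXCL6, CCL22 and TSLP were listed at 0. Of 44 interleukin and interleukin receptor genes 11 reached 1 CPM, and of 31 CXC and CC chemokines 8.

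All 17 type I interferon genes were listed at 0, while some of their targets had counts. IFIT3 had 161 and 160.1 CPM, IFIT1 had 68.4 and 67.2 CPM and ISG15, a ubiquitin-like modifier, had 37.1 and 42.5 CPM, whereas MX1 had 21.6 and 25.8 CPM and OAS1 had 14 and 14 counts. CD74, the chain that guides HLA class II proteins, had 237 and 223 CPM, and CIITA, the activator of class II genes, had 39.2 and 44.9 CPM. Of class II genes, HLA-DRB5 had 1 and 1 counts and HLA-DQA1 had 0, and 16 of the 31 genes on this list, B2M among them, were not analysed here. CD274, the ligand of PD-1, had 48.5 and 41.9 CPM.

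Chromatin genes named by the study were expressed at moderate levels, except for 1. MACROH2A1, the gene of mH2A1, had 373 and 381 CPM (118 TPM), and its 2 splice forms cannot be told apart from counts per gene. MACROH2A2, its paralog, was listed at 0 between COL13A1 at 208 CPM and AIFM2 at 42.0 CPM (means). PARP1, a partner of mH2A1.1, had 215 and 247 CPM and EZH2 had 141 and 141 CPM. The replacement histones H2AX (642 TPM) and H2AZ1 (518 TPM) were above MACROH2A1 per length. Of a list of 14 genes among those that the study names, 13 reached 1 CPM, from HACE1 at 23.5 and 24.7 CPM to MMP14, and KCNN3 was listed at 0 between ADAR and PMVK, which had counts.

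Among transporters and metal-binding genes, 18 of 22 reached 1 CPM. FTH1, the ferritin heavy chain, had 895 and 964 CPM (2457 TPM), and the transferrin receptor TFRC had 540.1 and 545 CPM. MT2A, a metallothionein, had 275 and 352 CPM (1816 TPM) and MT1E had 56.7 and 87.4 CPM, both higher in replicate 2, and they were the members of that family above 10 CPM. Guidance receptors and ligands were at 22 of 23, led by NRP1, a coreceptor of semaphorins and VEGF, at 718 and 707 CPM (328 TPM), and its partner PLXNA1 at 531 and 541 CPM (253 TPM).

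Families with tissue-restricted use were close to empty. Of 330 olfactory receptor genes, 312 were listed at 0, 17 had counts under 1 CPM, and OR6A2 alone reached it, with 19 and 6 counts. None of 73 keratin-associated protein genes, 18 late cornified envelope genes, 31 defensins and 22 genes of the MAGEA, MAGEB and MAGEC groups reached 1 CPM, and 71, 18, 30 and 16 of them were at 0. MAGE genes outside these groups were not part of the family as counted, and MAGED1, chosen after its value was seen, had 132 and 126 CPM. The shares at 0 compare with 23.1% over all protein-coding genes. Of 16 measured cancer testis antigens none reached 1 CPM in the mean, and SSX1 had 4 and 6 counts. The 4 HOX clusters had 4 of 39 genes at 1 CPM or more, HOXB9 (10.3 and 11.2 CPM), HOXB3 (5.82 and 4.07 CPM), HOXA13 (2.65 and 3.31 CPM) and HOXD1 (1.53 and 0.764 CPM).

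Between these and the housekeeping families lay those in which a few members carry the family. Of 50 keratin genes, 36 were at 0 and 9 reached 1 CPM, with KRT18, KRT19 and KRT8 the highest per length. Of 22 cadherins, 4 did, CDH11, CDH24 (33.7 and 30.8 CPM), CDH1 and CDH2. SOX9, a factor of progenitor cells, had 191 and 183 CPM and led 5 of 19 SOX genes, and CYP1B1, which oxidizes estrogens, had 515 and 481 CPM and led 13 of 54 cytochrome P450 genes. UGT8 was the only 1 of 17 UDP glucuronosyltransferases at 1 CPM or more, at 32.4 and 33.6 CPM, and PAX8 the only 1 of 9 PAX factors, at 17.7 and 20.6 CPM. WNT7B (46.6 and 48.9 CPM) led 4 of 17 WNT ligands, whereas 8 of 10 frizzled receptors were above the limit, with FZD6 at 116 and 102 CPM. KCNQ5, a potassium channel, had 53.4 and 47.3 CPM. C2H2 zinc finger genes were widely but weakly used, with 416 of 490 at 1 CPM or more, a median of 13.1 CPM and 16 at 100 CPM or more.

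**Figure D3:**
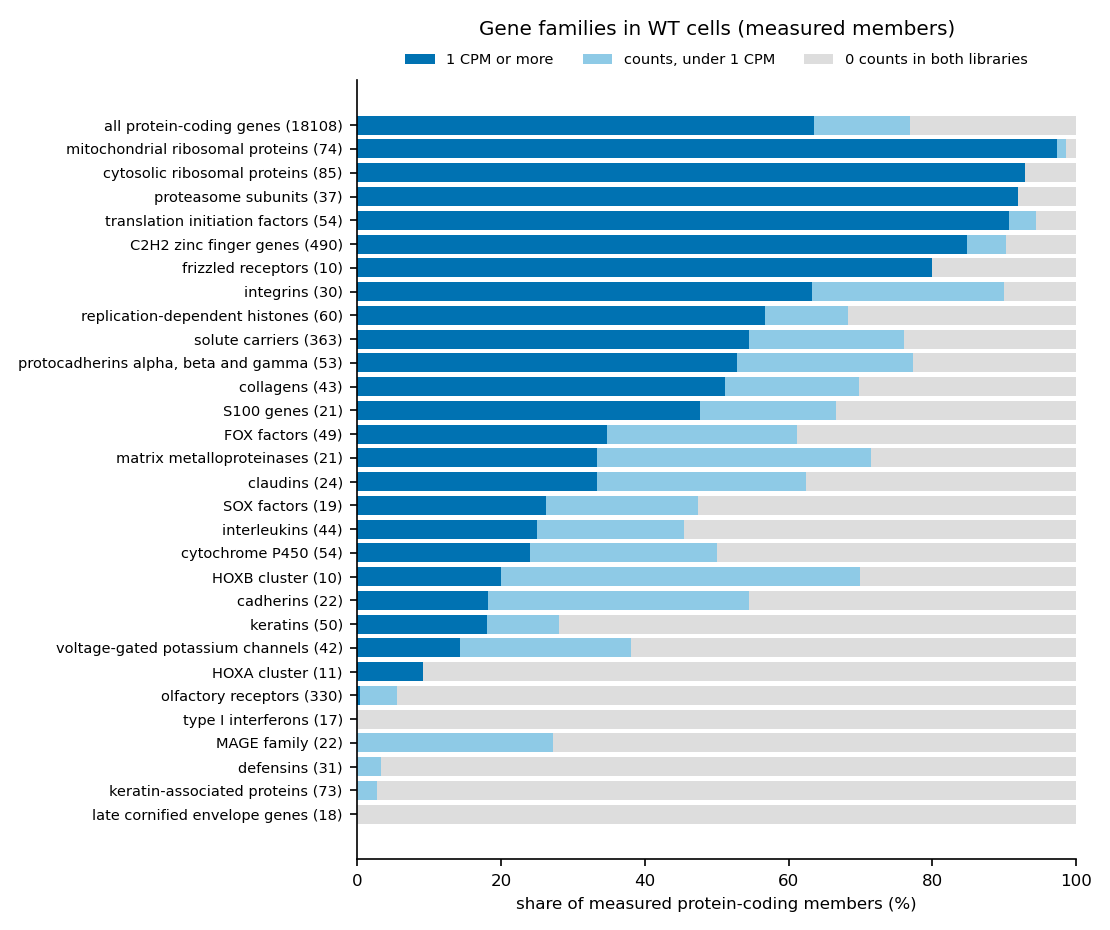
Share of the measured protein-coding members of 29 families, and of all 18108 protein-coding genes, at 1 CPM or more (dark blue), with counts under 1 CPM (light blue) and at 0 counts in both WT libraries (grey). Number of measured members in parentheses. The families range from mitochondrial ribosomal proteins, with 72 of 74 members at 1 CPM or more, to late cornified envelope genes, with all 18 at 0.

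Genes at 0 often lay side by side. Of 4163 protein-coding genes at 0 outside the Y chromosome, 1219 were in 138 runs of 5 or more neighbors, in the order of GENCODE release 44 and counting genes of the tables only. The longest, 51 genes from OR4X1 to APLNR on chromosome 11, was mostly olfactory receptors. The next, 41 genes from FLG2 to S100A7A on chromosome 1, lies in the epidermal differentiation complex and held all 18 late cornified envelope genes. A run of 36 from GRIK1 to KRTAP19-8 on chromosome 21 held keratin-associated proteins, a run of 35 from OR51D1 to UBQLNL on chromosome 11 held the beta-globin genes, and a run of 25 from UGT2B17 to AMBN on chromosome 4 held glucuronosyltransferases, caseins and salivary proteins.

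A run of 24 genes on chromosome 9 was of another make. It reached from HACD4 to IZUMO3 (GRCh38, chromosome 9 from 20999509 to 24545946) and held, beside the interferon genes, CDKN2A from 21967752 to 21995301, CDKN2B and MTAP, an enzyme of methionine salvage that most cells use. Every gene in it had 0 counts in both libraries. FOCAD, which ends at 20995955 just before the run, had 146 and 96 counts, and TUSC1, the first gene after it, had 31 and 33 counts. RPS6, further upstream, had 3609 and 3298 counts. MDA-MB-231 is known to have lost both copies of CDKN2A. The blocks that hold HNRNPL and RPL7A were at 0 in both libraries in the same way, and the cause of either kind of block was not tested.

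**Figure D4:**
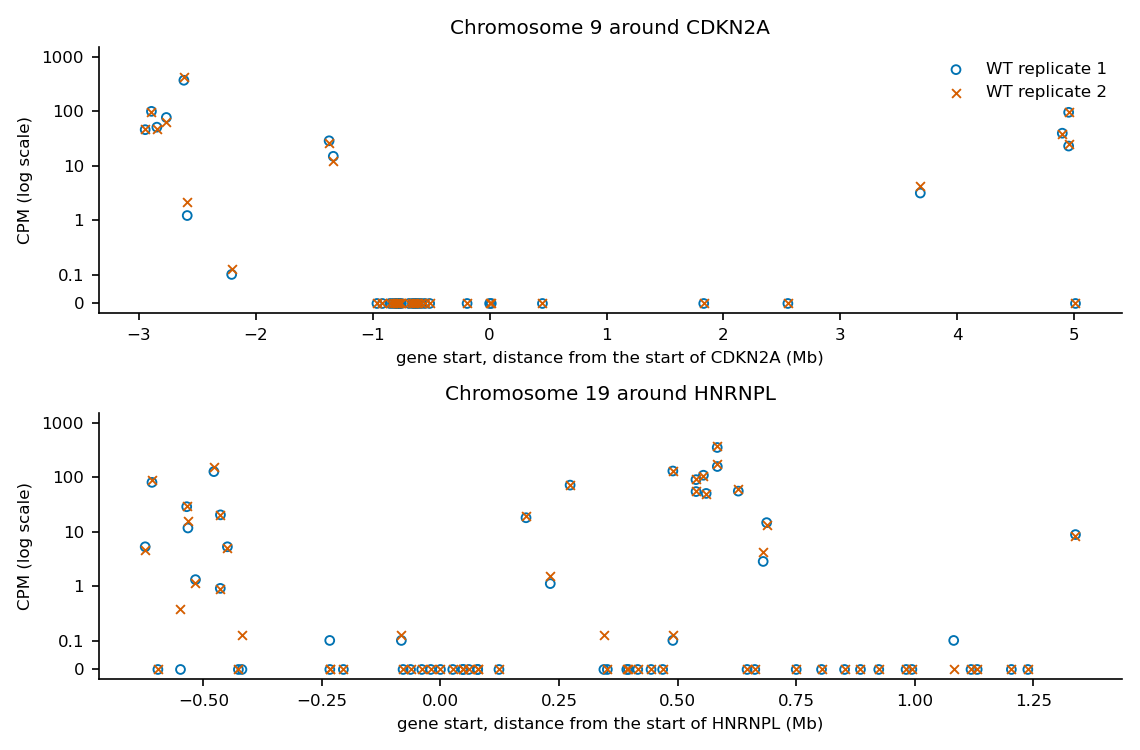
CPM of protein-coding genes by the distance of their start from that of CDKN2A on chromosome 9 (top) and of HNRNPL on chromosome 19 (bottom) in WT replicates 1 (circles) and 2 (crosses), log axis, counts of 0 drawn at the tick 0. All 24 genes of the run around CDKN2A sit at 0 between FOCAD and TUSC1, which had counts. All 12 of the run around HNRNPL sit at 0 between CAPN12, with 1 and 1 counts, and FBXO27, with 177 and 154 counts. Beyond CAPN12, EIF3K and ACTN4 are at 0 as well.

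Genes listed at 0 differed from expressed genes in the letters of their promoters. The window from 250 bases before to 50 after the start (RefSeq, GRCh38.p14) was found for 14417 of 18108 protein-coding genes. The ratio of observed to expected CG pairs, which is high in CpG islands, had a median of 0.32 at 0 counts, 0.55 under 1 CPM, 0.77 at 1 to 10 CPM, 0.85 at 10 to 100 CPM and 0.88 at 100 to 1000 CPM. The letters TATAAA, on either strand, were in 19.1% of windows at 0 counts, 4.44% at 10 to 100 CPM and 15.7% of the 51 windows at 1000 CPM or more, against 9.24% of all. GGGCGG, the core of the GC box, was in 33.8% at 0 counts and 73.2% at 100 to 1000 CPM, against 60.0% of all. Families kept their own make-up, since 65.5% of 55 replication-dependent histone windows and 78.1% of 64 keratin-associated protein windows held TATAAA. A match of letters is a description of the window and not a binding site.

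A set of 4 windows shows the range, with CG pairs and TATAAA in capitals, each written 5′ to 3′ on the strand of its gene. EGFR, at 639.7 ± 0.925 CPM, has 33 CG pairs and no TATAAA. H1-4, at 1018 ± 50.1 CPM, has 25 CG pairs and a TATAAA. KRT5, listed at 0, has 7 CG pairs. CDKN2A, also listed at 0, has 28 CG pairs, beside a median of 27 in genes at 10 to 100 CPM and 6 in genes at 0.
EGFR, chr7:55018767-55019066, plus strand: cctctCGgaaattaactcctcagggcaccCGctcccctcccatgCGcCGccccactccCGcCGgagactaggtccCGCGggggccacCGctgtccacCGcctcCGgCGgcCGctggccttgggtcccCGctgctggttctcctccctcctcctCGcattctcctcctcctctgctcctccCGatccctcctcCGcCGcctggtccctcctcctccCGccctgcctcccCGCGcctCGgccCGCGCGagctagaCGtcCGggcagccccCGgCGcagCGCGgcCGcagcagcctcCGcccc
H1-4, chr6:26156079-26156378, plus strand: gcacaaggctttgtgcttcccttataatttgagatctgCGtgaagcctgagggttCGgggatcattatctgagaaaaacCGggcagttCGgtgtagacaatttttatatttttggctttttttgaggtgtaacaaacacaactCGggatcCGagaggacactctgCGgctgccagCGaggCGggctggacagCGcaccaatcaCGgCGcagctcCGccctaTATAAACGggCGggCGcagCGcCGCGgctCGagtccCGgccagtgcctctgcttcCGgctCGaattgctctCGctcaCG
KRT5, chr12:52520345-52520644, minus strand: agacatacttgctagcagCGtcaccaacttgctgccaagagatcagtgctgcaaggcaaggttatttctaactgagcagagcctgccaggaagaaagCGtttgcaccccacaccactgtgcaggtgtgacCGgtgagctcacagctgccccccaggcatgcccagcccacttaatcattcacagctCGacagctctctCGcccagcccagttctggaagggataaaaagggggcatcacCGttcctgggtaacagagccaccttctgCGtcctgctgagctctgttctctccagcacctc
CDKN2A, chr9:21995275-21995574, minus strand: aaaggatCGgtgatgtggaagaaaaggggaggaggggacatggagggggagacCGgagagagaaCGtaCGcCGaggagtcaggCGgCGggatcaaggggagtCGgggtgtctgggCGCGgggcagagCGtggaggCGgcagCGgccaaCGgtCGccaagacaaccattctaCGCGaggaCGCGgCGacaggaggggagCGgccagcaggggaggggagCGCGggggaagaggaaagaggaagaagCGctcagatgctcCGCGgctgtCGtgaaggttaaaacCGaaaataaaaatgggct

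The peaks of the ChIP-seq of WT cells, 1 library for mH2A1.1 and 1 for total mH2A1, were a readout that the RNA values did not enter. An mH2A1.1 peak lay within 500 bases of the annotated start in 40.5% of protein-coding genes (95% exact binomial interval 39.8% to 41.2%, which covers counting error only). The share was 25.0% (23.7% to 26.3%) of genes at 0 counts, 40.8% (38.8% to 42.7%) under 1 CPM, 47.1% (45.1% to 49.1%) at 1 to 10 CPM, 44.8% (43.5% to 46.0%) at 10 to 100 CPM, 48.1% (46.2% to 50.1%) at 100 to 1000 CPM and 67.2% (54.0% to 78.7%) of the 61 genes at 1000 CPM or more. The share was lowest at 0 counts and lay between 44.8% and 48.1% in the 3 classes from 1 to 1000 CPM. That pattern depended on the peak set. The paper kept mH2A1.1 peaks in common with mH2A1. For mH2A1.1 peaks that overlap an mH2A1 peak the share was 19.7% at 0 counts and 32.5% under 1 CPM. It was 31.1% at 1 to 10 CPM, 23.5% at 10 to 100 CPM, 26.5% at 100 to 1000 CPM and 49.2% at 1000 CPM or more. For peaks of total mH2A1 the share was 24.8% (23.5% to 26.1%) at 0 counts, 35.6% (33.7% to 37.6%) under 1 CPM, 26.0% (24.2% to 27.8%) at 1 to 10 CPM, 16.8% (15.9% to 17.7%) at 10 to 100 CPM, 15.9% (14.5% to 17.4%) at 100 to 1000 CPM and 31.1% (19.9% to 44.3%) at 1000 CPM or more. Of the 4 marker genes, EGFR had both peaks at its start, MMP14 had mH2A1.1 only, and VIM and CD44 had neither. CDH1 had both, KRT5 had mH2A1.1 only, and ESR1 had neither.

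Non-coding RNA took a small share of the counts, most of it in a single gene. The tables list 2810 lncRNA genes and 2 rRNA genes, the latter at 0. By the paper's own figures, only a minority of the WT reads mapped uniquely. The share is therefore of counted reads and listed genes, not of all RNA in the cells. lncRNA genes held 2.07% and 1.81% of the libraries, and MALAT1, a nuclear RNA of speckles, was the highest gene of the whole table at 130837 and 89353 counts (13358 and 11373 CPM). NEAT1, the scaffold of paraspeckles, had 1755 and 1377 CPM, and NORAD, which binds Pumilio proteins, had 763 and 736 CPM. All of these were lower in replicate 2. The host genes of small nucleolar RNAs were led by SNHG16 at 217 and 223 CPM. H19 and HOTAIR had 0 and 3 counts and 0 and 2 counts, and MEG3 was listed at 0. Of the 1611 miRNA genes listed, 27 reached 1 CPM. Genes named as antisense to another held 2.78% and 2.76% of the counts of 833 such pairs on opposite strands, and the named gene was the higher in 509 of the 553 pairs with either at 1 CPM or more (92.0%).

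The replicates were close. Across the 14219 genes with counts in both libraries, Pearson's r of log2 CPM was 0.988, a correlation over genes, which are not independent. Of 10982 genes with at least 50 summed counts, 194 (1.77%) differed by over 1.5-fold, 80 higher and 114 lower in replicate 2, with 1 library on each side and so no p-value. Of these, 170 had under 200 summed counts and none had 5000 or more. Of the members tested, 0 of 17 mesenchymal, 0 of 32 cell cycle and 0 of 32 cytoskeletal and housekeeping genes passed 1.5-fold. Among cytosolic ribosomal protein genes 1 of 79 passed it, and among protocadherin genes 5 of 21. MT1E, at 56.7 and 87.4 CPM, was 1 of 13 tested genes of the list of genes named by the study to do so. Among genes with at least 200 summed counts, USP35 (85 and 133 counts) and H2AC4 (377 and 479 counts) were among the 5 most raised in replicate 2, and EID3 (168 and 77 counts) and C9orf72 (154 and 77 counts) among the 5 most lowered.

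The difference between the replicates moved with gene length. Spearman's rho of the log2 ratio (replicate 2 over 1) with exon length was -0.21 over 10655 protein-coding genes, given as a description over genes of 1 pair of libraries. The median ratio was 0.06 in the 25% of genes with the shortest exons (median 2657 bases) and -0.04 in that with the longest (median 11510 bases). For genes with 5000 or more counts the SD of the log2 ratio was 0.103, where counting alone gives 0.0329. For those with 50 or more and under 200 it was 0.339 against 0.295. The observed SD was thus above that of counting in both classes, and the cause of the excess was not tested.

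**Figure D5:**
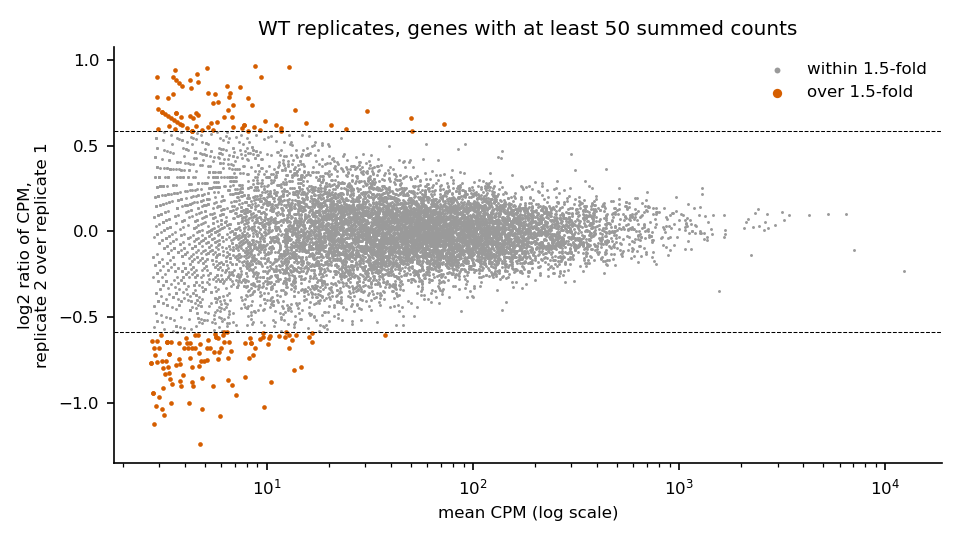
Log2 ratio of CPM (replicate 2 over replicate 1) against mean CPM (log axis) for the 10982 genes with at least 50 summed counts, 1 point per gene, dashed lines at 1.5-fold. The 194 genes beyond the lines (orange) lie mostly at low CPM, and none has 5000 or more counts.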

How the data were processed

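Total RNA libraries (TruSeq Stranded, HiSeq) of 2 WT samples were mapped by the authors to GRCh38 with STAR 2.5.1, filtered for mapping quality and duplicates with SAMtools, and counted with htseq-count at default settings. The deposited values are counts per Ensembl gene, without normalization, and the annotation used for counting is not given in the sources used here. Removing duplicates without molecular identifiers lowers densely covered genes most. The authors' peak lists hold positions only; their deposited scores are all 0, and the input and PCHiC samples were not used. Here, CPM used the library total (9794674 and 7856892), and TPM used merged exon lengths of GENCODE release 44 over protein-coding and lncRNA genes; TPM as designed for all genes was restricted to these. The 106 unmatched identifiers held 0.120% and 0.132% of counts. Named genes are members of the lists, the highest 3 of a family by TPM or its only members at 1 CPM, the 20 highest genes, the 5 most different between replicates in each direction, and the ends of the 5 longest runs of 0; neighbors of genes at 0 were chosen after their values were seen. The comparison of replicates was tested on simulated data. Members and lists were chosen with earlier results of these data known. Python 3.11.15, edgeR 4.0.16 and DESeq2 1.42.0 (normalization factors only) were used. Some members are not reported here. Alternatives changed normalization, limits, lengths, filters and libraries.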

Additional observations from a re-analysis of the deposited data

How the results depend on the processing

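With other normalization (edgeR TMM or DESeq2 size factors), matched identifiers only, a limit of 0.5 CPM, 1 CPM needed in both libraries, or replicate 1 thinned to the total of replicate 2, the number of genes at 1 CPM or more stayed between 11898 and 12826, and with a replicate left out it was 12123 and 12139. Genes at 0 in both libraries numbered 8333 and 8039 with a replicate left out. The share held by the 100 highest genes was 15.2% over protein-coding genes only. Without a filter beyond 1 count in each library 1764 of 14219 genes (12.4%) differed by over 1.5-fold between the replicates, and with at least 200 summed counts 24 of 9046 (0.265%). A peak at the start itself was found in 37.9% (mH2A1.1) and 20.3% (mH2A1) of protein-coding genes, and an mH2A1.1 peak that overlaps an mH2A1 peak in 25.3%. Chosen after seeing the data, leaving out runs of 5 or more neighbors at 0 left 2968 of 4187 protein-coding genes at 0, and leaving out genes with over 50% of their words on alternate sequences left 4128. TPM of the 4 marker genes with the longest transcript as length was 3270 for VIM, 881 for CD44, 538 for MMP14 and 241 for EGFR. Counts of members at 1 CPM or more in the lists and families changed by over 1.5 times in 10 (79 not) with a limit of 0.5 CPM and in 11 (78 not) with 1 TPM, and, with the levels of the marker genes, values moved in 3 (90 not) without replicate 1 and 8 (85 not) without replicate 2. The table holds 0 mitochondrially encoded genes, so leaving them out was not run. No paired analysis was possible because the result comes from no test. With 2 libraries, a difference under the counting SD of low genes was not detectable at this depth.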
